A study of Mus musculus with 4 samples.

Results

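The epidermal kallikreins Klk5, Klk6, Klk7, Klk8, Klk10 and Klk11, the protease inhibitor gene Spink5, the membrane protease genes St14 and Prss8, and the caspase gene Casp14 were followed in the skin of bleomycin-treated mice. These 10 genes were found by their symbols among the 24441 genes of the deposited table. RNA came from the skin of 2 GSDMD KO (GSDMD-/-) and 2 WT females of strain C57BL/6, labelled as postnatal week 8. Both genotypes had received bleomycin (BLM), a DNA-damaging drug used to induce skin fibrosis, by subcutaneous injection on alternate days up to day 28. The KO line was bought as a CRISPR/Cas9 line made in fertilized C57BL/6 eggs, so the deletion is not limited to a cell type, and no untreated skin was part of the comparison. Whether the libraries shared litters or processing days is not stated in the sources used here. The limma p-values given below therefore rest on the spread between these 4 samples, with the variance of each gene partly borrowed from the other genes.

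Kallikreins are secreted serine proteases, encoded side by side in a gene cluster, and those of the epidermis are released by granular keratinocytes into the spaces of the cornified layer. There they cut the desmosome proteins that hold dead cells together, and so set the rate at which the skin surface is shed. Klk5 is trypsin-like and can activate itself and Klk7, a chymotrypsin-like enzyme. LEKTI, the product of Spink5, inhibits several of them, and its loss causes Netherton syndrome, a disease with a leaky and peeling epidermis. Matriptase (St14) and prostasin (Prss8) are anchored to keratinocyte membranes, act on each other, and are needed for a tight barrier. Caspase 14 is made by differentiating keratinocytes and takes part in the breakdown of filaggrin.

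The 6 kallikrein genes lie on the plus strand of chromosome 7 within 76.6 kb of mm9, in the order Klk11, Klk10, Klk8, Klk7, Klk6 and Klk5, with Klk9 between Klk10 and Klk8. Sequences directly upstream of their start sites are shown because neighbouring genes of the cluster differed in their pattern over the libraries. Each is the stretch of 120 bases before a RefSeq start site, taken from the RefSeq promoter table of build GRCm38.p6 and placed on mm9 by exact match. The table held 7 of the 10 genes, of which the 6 kallikreins are shown, and 2 further windows that overlapped an annotated kallikrein exon were left out. The motifs searched, on both strands, were TTAAAA, the TATA-box letters (TATAAA), the letters TGANTCA bound by AP-1, and the GC-box letters (GGGCGG). Capitals mark a match, and no matches overlapped.
Klk11, chr7:51029867-51029986, plus strand: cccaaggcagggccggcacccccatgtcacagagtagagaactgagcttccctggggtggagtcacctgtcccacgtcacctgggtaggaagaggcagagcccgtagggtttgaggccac
Klk10, chr7:51036304-51036423, plus strand: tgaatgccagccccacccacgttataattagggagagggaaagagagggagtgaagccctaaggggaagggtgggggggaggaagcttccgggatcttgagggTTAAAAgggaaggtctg
Klk8, chr7:51052827-51052946, plus strand: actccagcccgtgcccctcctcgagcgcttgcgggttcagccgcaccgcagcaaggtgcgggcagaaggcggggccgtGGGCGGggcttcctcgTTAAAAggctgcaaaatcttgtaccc
Klk7, chr7:51066544-51066663, plus strand: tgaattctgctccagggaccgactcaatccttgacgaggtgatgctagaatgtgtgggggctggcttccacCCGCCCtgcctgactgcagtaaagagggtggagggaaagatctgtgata
Klk6, downstream start site, chr7:51080700-51080819, plus strand: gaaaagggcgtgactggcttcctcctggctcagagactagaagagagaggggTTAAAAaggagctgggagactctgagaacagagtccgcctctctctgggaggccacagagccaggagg
Klk5, chr7:51097519-51097638, plus strand: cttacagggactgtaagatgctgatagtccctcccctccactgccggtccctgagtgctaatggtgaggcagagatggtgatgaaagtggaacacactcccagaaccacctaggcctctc
The letters TTAAAA, looked for after the sequences had been seen, stood in 3 of the 6 windows, those of Klk10, Klk8 and Klk6, against 7.7% of 32851 RefSeq windows of the same length. GGGCGG stood in 2 of the 6, those of Klk8 and Klk7, against 26.5% of all windows. TATAAA (6.3% of all windows) and the AP-1 letters TGANTCA (3.4%) were in none of the 6.

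Levels are given as FPKM, fragments per kilobase of transcript scaled to the depth of the library, a division the authors had made before deposit. Summed over all genes, a library held between 448544 and 462251 FPKM, and from steps in the low values 1 fragment on 1 kb of transcript was estimated at 0.0574 to 0.0783 FPKM. The lowest value of any of the 10 genes, 3.93 FPKM for Spink5 in WT replicate 2, then rests on about 56.2 fragments per kb of transcript. Gsdmd itself had 14.05 and 18.2 FPKM in WT skin against 3.53 and 2.26 FPKM in KO skin, in the direction of the labels. Both KO libraries stood apart from the WT pair in tissue markers. KO replicate 1 carried inner root sheath genes of the hair follicle at a summed 315.0 FPKM, against 0.669 to 8.24 FPKM elsewhere. KO replicate 2 had a summed fibroblast marker level of 24.9 FPKM, against 180.1 to 422.0 FPKM in the other libraries, and 4 of 15 Y-linked genes were above 0 in it although the mice are labelled female. Results are therefore also given without each of these libraries.

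Keratinocyte markers were present in every library. Krt14, a keratin of basal cells, had 1293 and 1215 FPKM in WT skin against 2689 and 2735 FPKM in KO skin. Its partner Krt5 had 764.1 and 765.4 FPKM in WT skin against 1728 and 1664 FPKM in KO skin. The suprabasal keratin Krt10, in contrast, was split between the KO libraries, with 744.7 and 364.1 FPKM in WT skin against 1670 and 266.3 FPKM in KO skin. Skeletal muscle genes were the most abundant of the marker lists, and their sum was lower in both KO libraries, with totals over 6 genes of 20805 and 19615 FPKM in WT skin against 13019.7 and 12792 FPKM in KO skin. All 6 had a log2 difference below 0 (median -0.70), and 4 had both KO values below both WT values, an order found in 20.5% of all genes tested. The part of this shift in the values of the 10 genes was not tested.

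All 10 genes had higher values in KO replicate 1 than in WT replicate 1, and higher values in WT replicate 1 than in WT replicate 2, an order found in 33.7% of all genes tested. KO replicate 1 held the highest value of the 4 libraries in 8 of the 10, against 18.9% of all genes tested. KO replicate 2 divided them. It held the lowest value in 4 of the 10, Klk5, Klk6, Klk8 and Klk10, against 33.3% of all genes tested, whereas Klk11, Spink5, St14, Prss8 and Casp14 were above both WT libraries in it. Klk7 lay between the WT libraries. In whole skin, fewer cells of a type and less RNA per cell cannot be told apart.

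**Figure D1:**
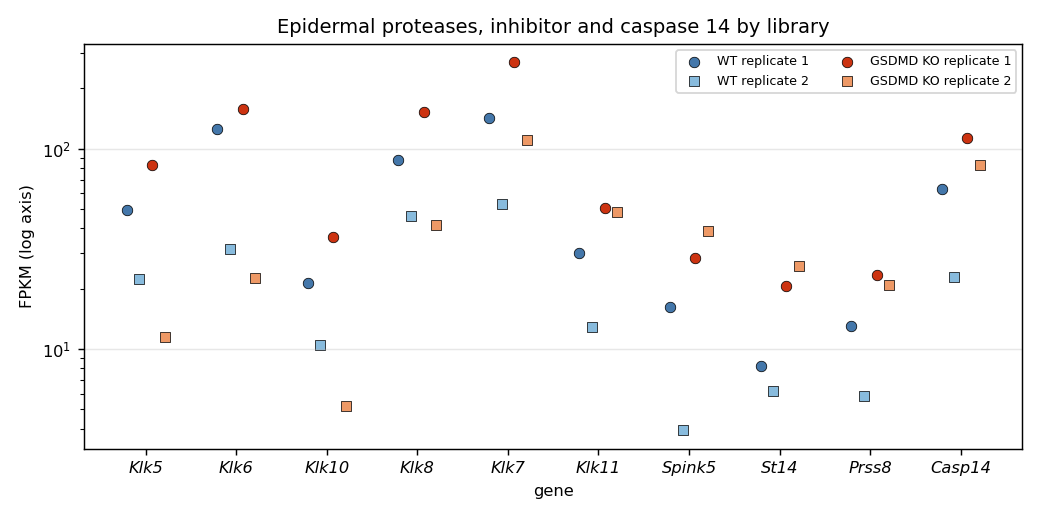
FPKM of the 10 genes on a log axis, with 1 point for each library (circles, replicate 1; squares, replicate 2; blue, WT; red and orange, GSDMD KO). In KO replicate 2, Klk5, Klk6, Klk8 and Klk10 lie below all other libraries, and in Klk11, Spink5, St14, Prss8 and Casp14 both KO points lie above both WT points.

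Klk5, the trypsin-like kallikrein at the head of the cascade (chr7:51097639-51106551), had 49.4 and 22.2 FPKM in WT skin against 82.9 and 11.5 FPKM in KO skin, replicate 1 given before replicate 2 throughout. The KO libraries thus held both the highest and the lowest value, and the groups overlapped. The difference on the log2(FPKM + 1) scale, KO minus WT, was -0.08 (standard error 0.95, 95% interval -2.51 to 2.35, adjusted p = 0.967 by limma). Leaving out KO replicate 2 gave 1.29, and leaving out KO replicate 1 gave -1.45.

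Klk6, a trypsin-like kallikrein also known from the brain (chr7:51079914-51087397), had 125.1 and 31.7 FPKM in WT skin against 157.7 and 22.6 FPKM in KO skin. Klk10, the kallikrein next to Klk11 (chr7:51036424-51040780), had 21.4 and 10.5 FPKM in WT skin against 36.2 and 5.21 FPKM in KO skin. Klk8, called neuropsin (chr7:51052947-51059196), had 88.1 and 46.0 FPKM in WT skin against 152.3 and 41.8 FPKM in KO skin. These 3 genes shared the order seen in Klk5, with KO replicate 1 highest, then WT replicate 1, WT replicate 2 and KO replicate 2. That order was present in 4.19% of the 13027 genes tested. An exon of Klk8 overlaps 2310002F09Rik, which is read from the other strand. Use of strand in the counting is not given in the sources used here. The log2 differences were -0.07 for Klk6 (standard error 1.08), -0.08 for Klk10 (standard error 0.89) and 0.32 for Klk8 (standard error 0.68), with adjusted p-values by limma of 0.975, 0.966 and 0.807. Their 95% intervals ran from -2.82 to 2.68, from -2.35 to 2.19 and from -1.41 to 2.06, so differences of several fold in either direction were within the error.

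Klk7, the chymotrypsin-like kallikrein that cuts corneodesmosin (chr7:51066664-51071757), was the most abundant of the 10 genes in every library. It had 142.5 and 53.2 FPKM in WT skin against 269.1 and 110.0 FPKM in KO skin. The groups overlapped, since KO replicate 2 lay below WT replicate 1. On the log2 scale KO minus WT came to 0.97 (standard error 0.64, adjusted p = 0.441 by limma), with 1.61 without KO replicate 2 and 0.33 without KO replicate 1.

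Klk11, a trypsin-like kallikrein at the other end of this stretch (chr7:51029987-51034632), differed from its neighbours in KO replicate 2. It had 30.3 and 12.9 FPKM in WT skin against 50.6 and 48.1 FPKM in KO skin, both KO values above both WT values. The log2 difference was 1.27 (standard error 0.43, unadjusted p = 0.0303, adjusted p = 0.264 by limma). Without WT replicate 2 it was 0.68 (unadjusted p = 0.107 by limma), which ended the unadjusted call, and without WT replicate 1 it was 1.85. The start of Klk10 lies 6.44 kb downstream of that of Klk11. Between KO replicates 2 and 1 the FPKM ratio was 0.950 for Klk11 and 0.144 for Klk10, while in Klk5 and Klk6 it was 0.139 and 0.143.

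**Figure D2:**
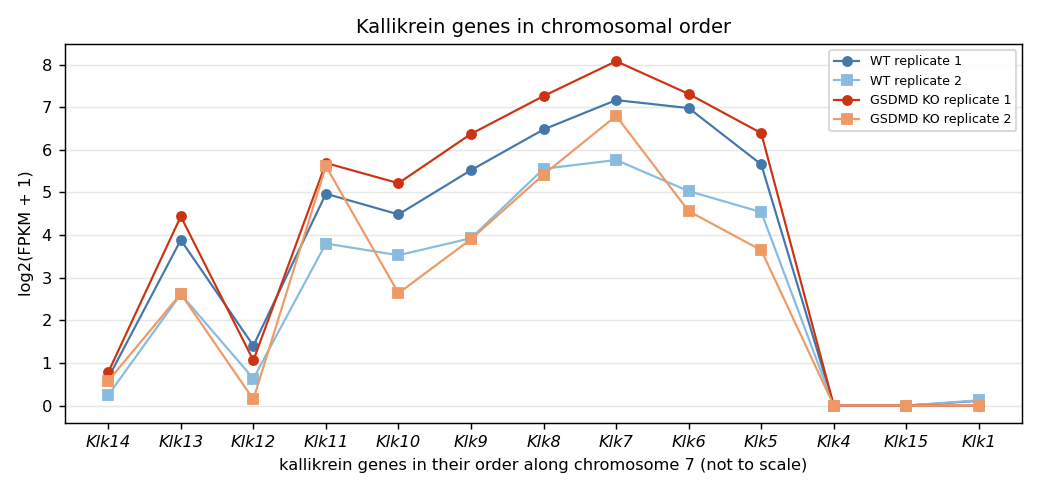
log2(FPKM + 1) of 13 kallikrein genes in their order along chromosome 7 (not to scale), with 1 line for each library. The line of KO replicate 2 meets that of KO replicate 1 at Klk11 and lies at or below that of WT replicate 2 at Klk10, Klk9, Klk8, Klk6 and Klk5.

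Of 7 further kallikreins of the cluster, 3 were high enough to be tested, with at least 1 FPKM in 2 libraries. Klk9, between Klk10 and Klk8, had 44.9 and 14.2 FPKM in WT skin against 81.8 and 13.97 FPKM in KO skin (log2 difference 0.41, standard error 0.95, adjusted p = 0.823 by limma). Klk13 had 13.8 and 5.12 FPKM in WT skin against 20.7 and 5.16 FPKM in KO skin, and Klk12 reached at most 1.65 FPKM. Klk14 stayed between 0.185 and 0.719 FPKM, and Klk4 and Klk15 were listed at 0 in all 4 libraries. The 13 glandular kallikreins of the Klk1b group, which are close copies of each other and could have shared fragments, summed to at most 1.21 FPKM in a library.

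Spink5, which encodes the inhibitor LEKTI (chr18:44122895-44182141), had 16.2 and 3.93 FPKM in WT skin against 28.5 and 38.9 FPKM in KO skin. Both KO libraries were above both WT libraries, and KO replicate 2 had the highest value. The WT libraries differed from each other more than the KO libraries did, with a mean of 10.04 ± 8.65 FPKM for WT skin and 33.7 ± 7.33 FPKM for KO skin (SD, n = 2). The log2 difference was 1.90 (standard error 0.62, 95% interval 0.32 to 3.49, unadjusted p = 0.0272, adjusted p = 0.261 by limma). It ranged from 1.00 without WT replicate 2 (unadjusted p = 0.0560 by limma) to 2.80 without WT replicate 1.

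St14, the matriptase gene (chr9:30896175-30939384), had the smallest standard error of the 10 genes. Its values were 8.22 and 6.15 FPKM in WT skin against 20.7 and 25.9 FPKM in KO skin, a gap larger than the spread within either group. The log2 difference was 1.57 (standard error 0.27, 95% interval 0.88 to 2.26, unadjusted p = 0.00198, adjusted p = 0.248 by limma). Without KO replicate 1 the difference was 1.73 and the adjusted p was 0.0148 by limma, a fit in which the lone KO library is assumed to vary like the WT pair and in which 2058 genes were called. Its adjusted p ran from 0.171 to 0.941 when another library was left out.

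Prss8, which encodes prostasin (chr7:135069231-135073627), had 13.0 and 5.80 FPKM in WT skin against 23.5 and 20.9 FPKM in KO skin. The KO values lay close together and above both WT values, with a log2 difference of 1.25 (standard error 0.40, unadjusted p = 0.0251, adjusted p = 0.257 by limma). An exon of Prss8 overlaps Myst1 on the opposite strand. Casp14 (chr10:78174740-78181038) had 62.8 and 22.8 FPKM in WT skin against 112.5 and 82.7 FPKM in KO skin. Its groups did not overlap either, and its log2 difference was 1.32 (standard error 0.51, unadjusted p = 0.0490, adjusted p = 0.291 by limma). Under 6 other pseudocounts, filters and scalings the unadjusted p of Casp14 was 0.0506 to 0.0692, past the 0.05 limit. Without WT replicate 2 the differences were 0.73 for Prss8 and 0.61 for Casp14, with unadjusted p-values by limma of 0.102 and 0.184.

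When a call needed a log2 difference beyond 1 in size together with a Benjamini-Hochberg adjusted p below 0.05, limma called 0 of the 10 genes, and 0% of the 13027 genes tested. With the unadjusted p below 0.05 and the same limit on the difference, 5 of the 10 were higher in GSDMD KO mice, namely Klk11, Spink5, St14, Prss8 and Casp14, against 6.16% of all genes tested. None of the 10 was lower by this rule, against 4.14%. Over all genes this rule gave 802 higher and 539 lower, and 608 higher and 697 lower with median-ratio scaling. Klk11, Spink5, St14, Prss8 and Casp14 were also the 5 genes that had both KO libraries above both WT libraries, an order found in 35.3% of all genes tested, and the opposite order, found in 20.5%, was seen in 0 of the 10. The median log2 difference was 1.11 over the 10 genes and 0.11 over all genes tested. It was 0.13 over the 6 kallikreins and 1.45 over Spink5, St14, Prss8 and Casp14. Over the 10 genes the median was 0.44 without WT replicate 2 and 1.72 without WT replicate 1. Of the genes measured, 7 had a difference above 0 and 3 below 0. The share of all genes past the unadjusted threshold itself changed with the library left out. Without KO replicate 1, 4 of the 10 passed as higher, against 10.8% of all genes tested, and 2 as lower, against 12.3%. The 2 were Klk5 (-1.45, unadjusted p = 0.0155 by limma) and Klk10 (-1.37, unadjusted p = 0.0143 by limma). Without KO replicate 2, 9 of the 10 passed as higher, against 5.63%, and 0 as lower, against 2.56%. Without WT replicate 1, 5 passed as higher, against 6.82%, and 0 as lower, against 3.29%. Without WT replicate 2, St14 alone passed as higher, against 2.04%, and 0 as lower, against 1.86%. For any single gene, the smallest two-sided p that exact permutation of 2 against 2 libraries can give is 0.333.

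**Figure D3:**
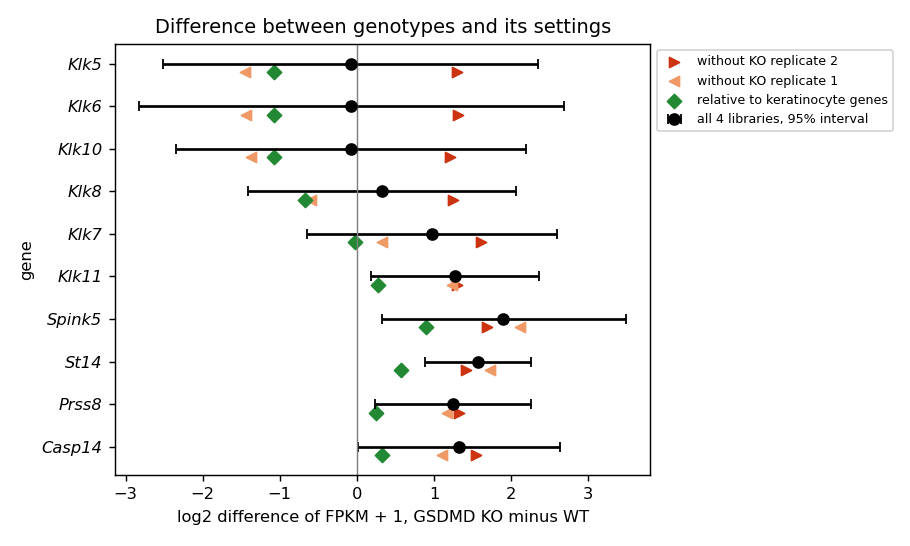
Log2 difference of FPKM + 1, GSDMD KO minus WT, for each gene, with black points and 95% intervals from all 4 libraries and coloured marks for the fits without KO replicate 2, without KO replicate 1 and relative to keratinocyte genes. For Klk5, Klk6, Klk8 and Klk10 the marks without KO replicate 1 and without KO replicate 2 fall on opposite sides of 0, from -1.45 to 1.31, while those of Klk11, Spink5, St14, Prss8 and Casp14 all lie above 0.

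The ranking of the 10 genes by level was partly shared by 3 of the libraries. Klk7 ranked at 1, Casp14 at 4, Klk5 at 5, Klk11 at 6, Klk10 at 7 and Prss8 at 9. This held in WT replicates 1 and 2 as well as KO replicate 1. Ranks in WT replicate 2 differed for Klk6, Klk8, Spink5 and St14, at 3, 2, 10 and 8. In both WT replicate 1 and KO replicate 1 these genes stood at 2, 3, 8 and 10. KO replicate 2 had Klk7, Casp14 and Klk11 as its leading genes, and Klk5 and Klk10 at ranks 9 and 10. By group means the order in WT mice was Klk7, Klk6, Klk8, Casp14, Klk5, Klk11, Klk10, Spink5, Prss8 and St14, and in 0 of the 9 neighbouring pairs was the difference larger than the larger SD. In KO mice 1 of 9 neighbouring pairs passed that limit, Spink5 above St14.

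Ratios within a library do not depend on its scaling. Over all 45 pairs of the 10 genes, the steadiest were Klk11 to Prss8, whose FPKM ratio stayed between 2.15 and 2.34 in the 4 libraries, and Klk5 to Klk10, at 2.11 to 2.31. The pair with the widest range was Klk10 to Spink5, with ratios of 1.32 and 2.68 in WT, 1.27 in KO replicate 1 and 0.134 in KO replicate 2. Klk5 stood at 3.06 and 5.66 times Spink5 in WT and at 2.90 and 0.296 times Spink5 in KO replicates 1 and 2. For the 6 kallikreins summed, the ratio to Spink5 was 28.3 and 44.9 in WT, 26.2 in KO replicate 1 and 6.15 in KO replicate 2. KO replicate 2 held the highest or the lowest ratio in 39 of the 45 pairs, WT replicate 2 in 25, WT replicate 1 in 21 and KO replicate 1 in 5. The pairs share genes, and the same count over pairs of other genes was not made. The lower kallikrein to inhibitor ratio was thus seen in a single KO library, while KO replicate 1 lay just below WT replicate 1.

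**Figure D4:**
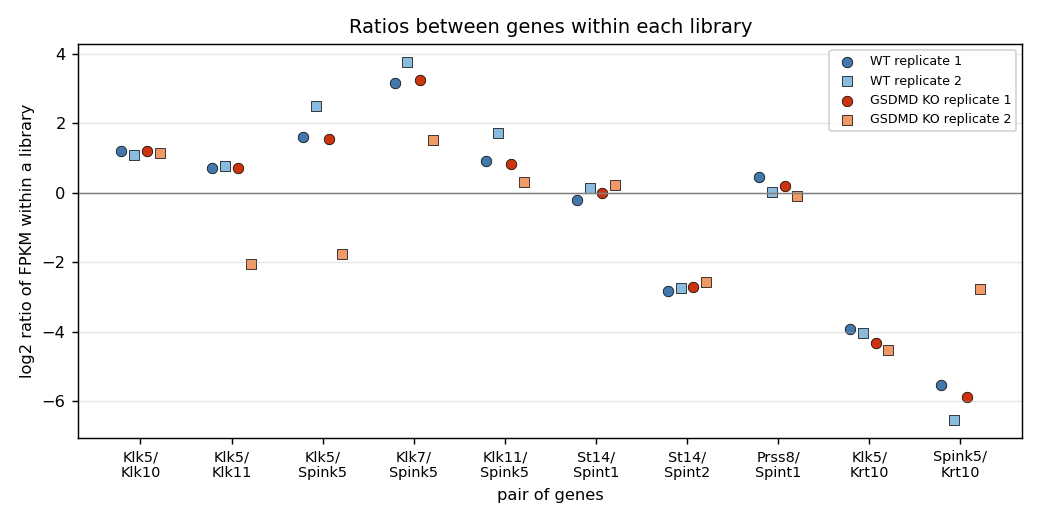
Log2 ratio of FPKM between pairs of genes within each library, 1 point for each library. Klk5/Klk10, St14/Spint1 and St14/Spint2 stay within a narrow band, and Klk5/Klk11, Klk5/Spink5 and Spink5/Krt10 place KO replicate 2 apart from the other 3 libraries.

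Among other protease inhibitors of the epidermis, 6 of 8 genes were tested, and 3 had an unadjusted p under 0.05 with a difference above 1, against 6.16% of all genes tested, while 1 had such a difference below -1, against 4.14%. Spint1 and Spint2, the Kunitz inhibitors of matriptase, had log2 differences of 1.43 and 1.54 (standard errors 0.30 and 0.27, adjusted p = 0.248 for each by limma). Spint2 had 58.1 and 41.1 FPKM in WT skin against 135.4 and 152.8 FPKM in KO skin. The St14 to Spint2 ratio was 0.142 and 0.1497 in WT skin against 0.153 and 0.170 in KO skin, and St14 to Spint1 ran from 0.873 to 1.17. Cst6, an inhibitor of cysteine proteases, had a difference of 0.69 (standard error 0.33). Slpi, a serine protease inhibitor of epithelia and of neutrophils, went the other way, with 41.4 and 60.9 FPKM in WT skin against 21.2 and 6.46 FPKM in KO skin (log2 difference -1.99, standard error 0.57, adjusted p = 0.248 by limma).

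Among 9 other epidermal proteases 7 were tested, all 7 had a difference above 0 (median 0.67), and 2 were higher at the unadjusted threshold, against 6.16% of all genes tested and their median of 0.11. Asprv1, which cuts profilaggrin, had 508.9 and 227.5 FPKM in WT skin against 978.8 and 141.5 FPKM in KO skin, the order seen in Klk5. Blmh, the bleomycin hydrolase that also trims filaggrin peptides, had 60.4 and 39.8 FPKM in WT skin against 137.0 and 34.8 FPKM in KO skin, again in that order. Capn1 had 46.7 and 37.0 FPKM in WT skin against 54.6 and 50.6 FPKM in KO skin (log2 difference 0.33). Tmprss4, a membrane protease, had 19.1 and 14.3 FPKM in WT skin against 41.1 and 25.5 FPKM in KO skin (log2 difference 0.93). Both Capn1 and Tmprss4 had both KO libraries above both WT libraries, an order found in 35.3% of all genes tested.

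Of 11 targets and receptors of the cascade, 10 were in the table and tested, and Flg was not analysed here. All 10 had a difference above 0, with a median of 1.54 against 0.11 over all genes tested. At the unadjusted threshold 4 were higher, against 6.16% of all genes tested, and 8 had both KO libraries above both WT libraries, against 35.3%. Cdsn, which encodes corneodesmosin, had 89.6 and 48.0 FPKM in WT skin against 181.1 and 31.3 FPKM in KO skin (log2 difference 0.20, adjusted p = 0.911 by limma). Epcam, a surface protein cut by matriptase, had 24.8 and 11.2 FPKM in WT skin against 68.6 and 101.5 FPKM in KO skin (log2 difference 2.25, standard error 0.44, adjusted p = 0.248 by limma). F2rl1, the receptor PAR2 that Klk5 can activate, was named after its values were seen, and it had 5.07 and 2.90 FPKM in WT skin against 11.3 and 16.9 FPKM in KO skin. Dsg1a, a desmosomal cadherin, and Flg2, a relative of filaggrin, had differences of 1.63 and 1.58 (standard errors 0.56 and 0.73).

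The pattern of the 10 genes was set beside the layers of the epidermis. All 7 basal keratinocyte genes had both KO libraries above both WT libraries, against 35.3% of all genes tested, with a median log2 difference of 1.11. The median of the 10 genes was also 1.11, but it joins 0.13 for the 6 kallikreins and 1.45 for Spink5, St14, Prss8 and Casp14. Of 7 suprabasal genes 2 had both KO libraries above both WT libraries, Dsp and Perp, which is no more than the share of all genes. The suprabasal median was 0.75. Of 6 cornified envelope genes tested, 5 had a difference above 0 and 1 below 0, with a median of 0.54 and none without overlap. The 1 below 0 was Lor, the most abundant of them, which had 1450 and 809.6 FPKM in WT skin against 2844 and 155.0 FPKM in KO skin. Krt10 to Krt5, a ratio of a suprabasal to a basal keratin, was 0.975 and 0.476 in WT, 0.967 in KO replicate 1 and 0.160 in KO replicate 2. Klk5 relative to Krt10 stayed between 0.0432 and 0.0664 in the 4 libraries. Spink5 relative to Krt10 was 0.0217 and 0.0108 in WT, 0.0171 in KO replicate 1 and 0.146 in KO replicate 2, while relative to Krt5 it was 0.0212, 0.00513, 0.0165 and 0.0234 in the same order. The part of these shifts in the results was not tested.

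Measured relative to the mean of the 7 basal and 7 suprabasal keratinocyte genes, the median log2 difference of the 10 genes was 0.11 instead of 1.11. On that scale Spink5 stood at 0.90, St14 at 0.57, Casp14 at 0.32, Klk11 at 0.27 and Prss8 at 0.25, whereas Klk5, Klk6 and Klk10 stood at -1.08, -1.07 and -1.08. None of the 10 passed the unadjusted threshold on it, where 0.691% of all genes tested passed as higher and 29.5% as lower. The standard errors of the 10 genes were nearly equal in this fit, at 0.62 to 0.64, against 0.27 to 1.08 without this scaling. Such a test cannot weigh each gene by its own spread. The median of all genes tested moved to -0.89 on the same scale.

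**Figure D5:**
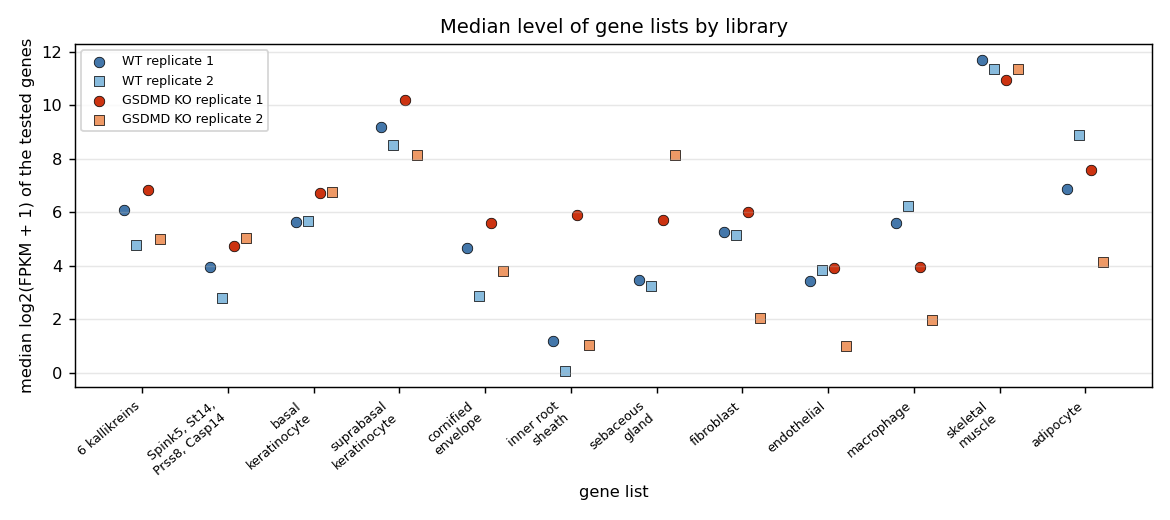
Median log2(FPKM + 1) of the tested genes of each list, 1 point for each library. The basal keratinocyte list has both KO libraries above both WT libraries (6.72 and 6.77 against 5.63 and 5.68). KO replicate 2 has the lowest median in the fibroblast, endothelial, macrophage and adipocyte lists. It also has the lowest suprabasal median (8.13 against 8.51 to 10.19), though only 3 of 7 genes were lowest in it, against 33.3% of all genes tested. Summed over the suprabasal genes, KO replicate 2 had 2724 FPKM and WT replicate 2 had 1766 FPKM.

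Of the markers of other cells, 5 of 6 macrophage genes had both KO values below both WT values, against 20.5% of all genes tested. The 6 summed to 1489 and 1361 FPKM in WT skin against 495.9 and 68.0 FPKM in KO skin. Over 5 adipocyte markers, of which 1 had both KO values below both WT values, a share near that of all genes, the sum was 1753 and 4798 FPKM in WT skin against 2221 and 208.1 FPKM in KO skin. Over 6 sebaceous gland genes it was 767.1 and 2095 FPKM in WT skin against 830.0 and 2445 FPKM in KO skin, with a median log2 difference of 1.80 and 3 of 6 genes with both KO values above both WT values, against 35.3% of all genes tested. The sebaceous sums lay closer within replicate numbers than within genotypes. The median log2(FPKM + 1) of the same genes instead separated the genotypes, at 3.47 and 3.25 in WT skin against 5.70 and 8.14 in KO skin. The part of these markers in the values of the 10 genes was not tested.

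The mean profile of the 10 genes, centred for each gene on the log2(FPKM + 1) scale, was 0.19 and -1.03 in WT replicates 1 and 2 and 0.98 and -0.14 in KO replicates 1 and 2. Of 8747 other tested genes with at least 5 FPKM on average, the 5 with the smallest Euclidean distance to it over the 4 libraries were Rnf225, Epn3, Xkrx, Them5 and Calm5, at distances from 0.097 to 0.173. Rnf225, the closest, had 8.46 and 3.18 FPKM in WT skin against 16.9 and 6.76 FPKM in KO skin. A profile over 4 points is matched by many genes, and this mean joins the different patterns of Klk5 and Spink5.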

How the data were processed

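RNA of BLM-treated skin from 2 WT and 2 GSDMD KO mice had been sequenced. Alignment to mm9 used HISAT2 (version 2.0.1), and the submitters' processing notes also list StringTie (version 2.0.6). The authors deposited a single table whose name speaks of counts. Its numbers are FPKM values, which the authors had normalized for transcript length and library depth. Of those above 0, 99.993% have decimals, and the program behind them is not given in the sources used here. The count-based DESeq2 test of the authors could therefore not be repeated. Of 24441 rows, 0 lacked a gene name and 26 names had become dates.

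Levels were taken to log2(FPKM + 1) with no further scaling. A gene entered the test with 1 FPKM or more in 2 or more libraries, which kept 13027 genes. limma (version 3.58.1, R version 4.3.3) was run with genotype as the only term, a mean-variance trend and Benjamini-Hochberg adjustment over these genes. Depth was estimated from value steps in 2710 long genes that have a single transcript, and is approximate. Loci come from the table, and exons from GENCODE on mm9. The 10 genes and all lists were chosen with earlier results of these data known. Named genes are the 10 genes, Gsdmd, up to 4 of the most abundant tested genes of a related list, and the 5 nearest profiles. Ratios beyond the 45 pairs, and other genes named, were chosen after the values were seen. Same-numbered libraries were not treated as pairs, since no source links them. Alternatives were other pseudocounts, filters and scalings, a fit without the trend, a replicate block, leaving out each library, and scaling to keratinocyte genes.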

Additional observations from a re-analysis of the deposited data

How the results depend on the processing

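Over all genes tested, limma called 0 genes under each alternative that kept all 4 libraries without scaling to keratinocyte genes, and 0 to 2058 genes when a library was left out. Relative to keratinocyte genes, 46 genes were called higher and 1692 lower, in a fit that gave the 10 genes nearly equal standard errors (0.62 to 0.64). The highest count with a library left out was without KO replicate 1, and 43 genes were called without KO replicate 2. Among the 10 genes, 0 to 1 were called when a library was left out, the single call being St14 without KO replicate 1. At the unadjusted threshold 1 to 9 of the 10 passed when a library was left out, with 1 without WT replicate 2, 9 without KO replicate 2, and 4 higher and 2 lower without KO replicate 1. Over all 13027 genes the same fits gave 266 higher and 242 lower, 734 higher and 333 lower, and 1412 higher and 1605 lower. Of the 10 genes 0 passed relative to keratinocyte genes, where 90 genes passed as higher and 3842 as lower, and 4 or 5 passed under the other alternatives, Casp14 being the gene lost. The median log2 difference of the 10 genes was 0.44 to 1.72 when a library was left out and 0.97 with median-ratio factors, and it was 0.11 relative to keratinocyte genes. Differences that crossed 0 were those of Klk5 (-1.45 to 1.29), Klk6 (-1.44 to 1.31), Klk10 (-1.37 to 1.21) and Klk8 (-0.60 to 1.25) with a library left out, and relative to keratinocyte genes those of Klk7 (-0.0266) and Klk8 (-0.68). A fit blocked on the replicate number left 5 of the 10 genes past the unadjusted threshold and called 0. Deviations of same-numbered libraries correlated at -0.20 over 13027 genes. With 2 libraries in each group this compares a single contrast per genotype, and it cannot decide whether the numbers are pairs. They were not read as pairs because no source links them. The lowest value of the 10 genes rested on about 56.2 fragments per kb by an approximate estimate, and the part of depth in the differences was not tested.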
